A study of Homo sapiens with 24 samples.

Results

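The ubiquitin-conjugating enzymes, or E2 enzymes, are a family of human genes whose symbols begin with UBE2. They were taken here by name (UBE2, a capital letter and any digits) and by a mean of at least 1 TPM (an abundance corrected for the length of each transcript, in which every library adds to one constant) over 24 libraries. The name matched 33 symbols and 31 of them reached that level, out of 13416 genes at or above it and 25341 gene symbols in all. The 2 that did not, UBE2L6 (the E2 for the interferon-induced modifier ISG15) and UBE2U, were listed at 0 in every library, while the lowest members inside the limit, UBE2D4 and UBE2Q2, averaged 5.69 and 6.09 TPM.

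The libraries came from U2OS, an established human osteosarcoma cell line, in a custom stable line with a Tet-off switch, in which leaving out doxycycline turns on TOB2 carrying the change S254D. The induced arm was grown without doxycycline and the uninduced arm with it, so drug and transgene changed together. Cells were labelled with bromouridine, a uridine analogue built into new RNA, and chased for 0, 0.5, 1, 2, 4 or 6 h. Cytoplasmic RNA was extracted and its labelled part was recovered with an antibody against bromouridine, so that each of the 12 combinations of arm and chase time has 2 libraries. Nothing in the labels says that replicates were separate cultures, so p-values measure the spread between these libraries, which may be technical. TOB2 belongs to a family of proteins that bring the CCR4-NOT deadenylase to mRNAs, and the study's title names mRNA turnover as its question.

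Ubiquitin is activated by an E1 enzyme, passed to the cysteine of an E2 and placed on a substrate with the help of an E3 ligase. The E2 often decides which lysine of ubiquitin is used to build a chain, and so whether the substrate is sent to the proteasome (chains through lysine 48 or lysine 11) or used in signalling and repair (chains through lysine 63). A few members carry a small relative of ubiquitin, such as NEDD8, in its place.

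TOB2 was higher in the induced libraries at 6 of 6 times with no overlap, at 499.03 to 724.96 TPM in the induced arm against 92.34 to 267.35 TPM in the uninduced arm, although reads of the transgene and of the endogenous gene could not be told apart. The r between replicates was 0.97 to 0.986 on log2(TPM + 1) across genes. RMRP, MIR6723 and RPPH1, noncoding RNAs, together made up 21.2% to 27.5% of induced and 22.1% to 22.6% of uninduced libraries at 0 h, and 7.14% to 7.55% of induced and 7.78% to 8.45% of uninduced libraries at 6 h. Since TPM adds to a fixed total, the fall of these RNAs lifts all others, and every slope below is relative to the labelled RNA of its own library. A loss shared by all RNAs leaves no trace in such values, and slower loss cannot be told apart from export of labelled RNA into the cytoplasm after the pulse. In bulk samples fewer cells with an RNA and less of it per cell cannot be told apart either. Of the osteoblast markers looked for, 3 of 10 reached 1 TPM (RUNX2, COL1A1 and BGLAP, summed level of the list 14.2 to 29.4 TPM in induced and 10.2 to 22.3 TPM in uninduced libraries) and IBSP was at 0. Of the leukocyte markers 2 of 10 did (CD14 and LYZ, summed list 16.1 to 63.6 and 14.5 to 44.7 TPM), and of the epithelial markers 3 of 10 (KRT8, KRT18 and CLDN4, summed list 1770 to 4190 and 1740 to 2890 TPM), with EPCAM at 0.

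The E2 mRNAs spanned a wide range of labelled abundance. Averaged over all libraries, 10 members lay above 100 TPM and 2 below 10 TPM, with a median of 54.9 TPM. The highest were UBE2S at 323.7 TPM and UBE2C at 303.9 TPM, the E2 pair of the anaphase-promoting complex, the ligase that ends mitosis. UBE2T at 191.6 TPM (Fanconi anaemia repair), UBE2D3 at 160.6 TPM (a partner of many ligases), UBE2L3 at 158.2 TPM (HECT and RBR ligases) and UBE2N at 155.5 TPM (lysine 63 chains) came next. The summed share of the members in a library was 0.188% ± 0.0137 at 0 h and 0.327% ± 0.00751 at 6 h in induced cells, and 0.198% ± 0.00821 and 0.36% ± 0.00482 in uninduced cells (SD, n = 2 each). Levels of UBE2V1, UBE2F and UBE2Q2 are uncertain, because the table also lists the readthrough genes TMEM189-UBE2V1 (up to 19.8 TPM) and UBE2F-SCLY and the pseudogenes UBE2Q2P1 and UBE2Q2P2, which share sequence with them.

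The first comparison asked how each labelled mRNA moved over the chase within an arm, as the slope of a line fitted by limma to log2(TPM + 1) against hours. Most E2 mRNAs rose relative to other labelled RNAs in both arms. In the induced arm 25 of 31 rose and 1 fell, against 41.6% of all genes rising and 29% falling, 70.7% in all. In the uninduced arm 27 of 31 rose and none fell, against 42.8% and 22.3% of all genes, 65.1% in all (limma, Benjamini-Hochberg adjusted p under 0.05 over all genes). At an unadjusted p under 0.05 the counts there were again 27 and 0, against 67.9% of all genes in either direction. The median slope of the members was 0.13 log2 units per hour in the induced arm and 0.144 in the uninduced arm, while that of all genes was 0.0281 and 0.0389. Both 6 h libraries lay above both 0 h libraries for 24 members in induced cells and for 29 members in uninduced cells, against 47.0% and 50.1% of all genes. Scaling by median of ratios moved the median of all genes by -0.0323 per hour in the induced arm and -0.0441 in the uninduced arm, and it left 20 members rising and 2 falling in induced cells and 22 rising and 2 falling in uninduced cells. Under all 5 scalings tried, 19 members rose in induced cells and 17 in uninduced cells, and all of the 17, UBE2C, UBE2D2, UBE2D3, UBE2J2, UBE2L3, UBE2N, UBE2Q1 and UBE2T among them, were also among the 19. The calls of UBE2F, UBE2H, UBE2J1, UBE2S and UBE2W were lost under at least 1 scaling in both arms, as were those of UBE2E1 in induced cells and of UBE2A, UBE2B, UBE2O, UBE2R2 and UBE2V2 in uninduced cells. Shares of all genes under these other scalings are not set beside the counts, and the 41.6% and 42.8% belong to the main fit. By median of ratios the median of all genes was -0.00414 in induced and -0.00517 in uninduced cells. In the main fit, slopes above the median of all genes were seen for 25 members in induced cells and for 29 in uninduced cells.

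**Figure D1:**
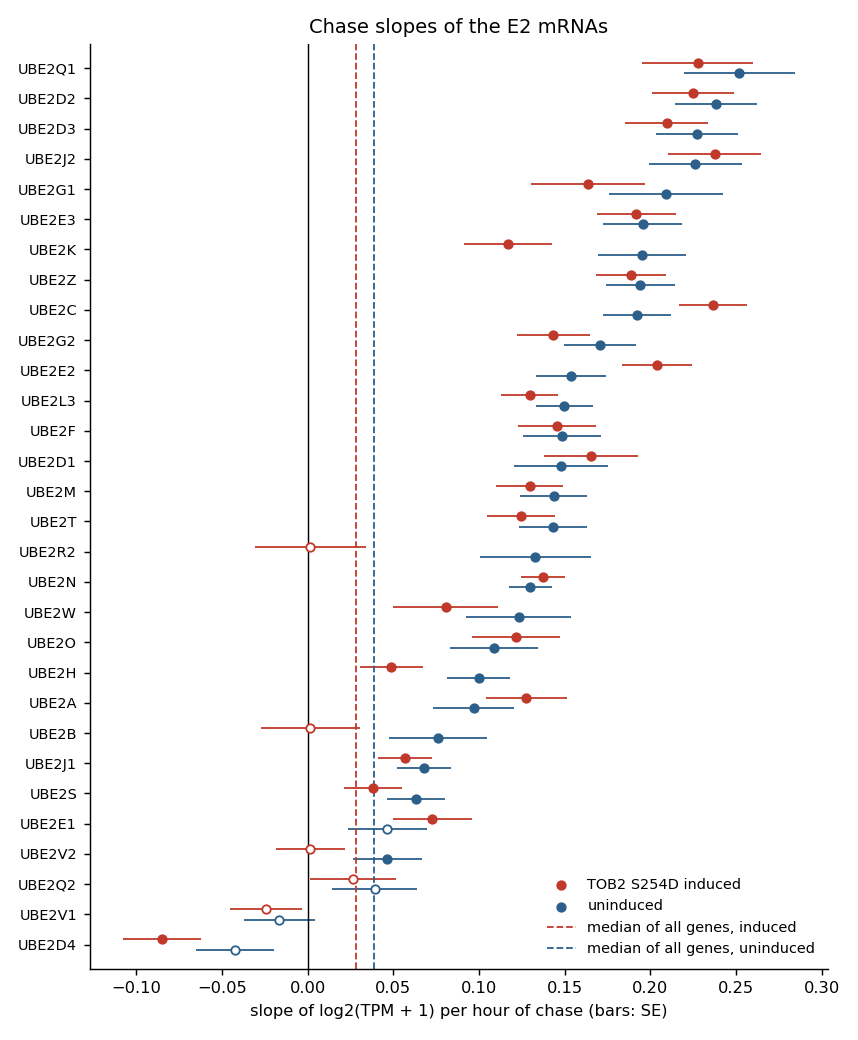
Slope of log2(TPM + 1) per hour of chase for the E2 mRNAs in the induced (red) and the uninduced (blue) arm, with the SE of the fit as bars. Filled points passed an adjusted p of 0.05, open points did not, and dashed lines mark the medians of all genes at 0.0281 (induced) and 0.0389 (uninduced). Most members lie to the right of both lines, and UBE2D4 and UBE2V1 lie left of 0 in both arms.

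Both E2 enzymes of NEDD8, which modify cullins, rose in both arms. UBE2M was at 87.43 and 83.9 TPM at 0 h and 117.97 and 149.33 TPM after 6 h in induced cells, and at 87.66 and 89.19 TPM at 0 h and 141.49 and 157.86 TPM after 6 h in uninduced cells. Both 6 h libraries lay above both 0 h libraries in either arm. In log2 units per hour ± SE, its slope was 0.13 ± 0.0195 in induced cells (limma adjusted p = 2.55e-06) and 0.14 ± 0.0195 in uninduced cells (adjusted p = 7.95e-07). UBE2M is the partner of the RING subunit RBX1. UBE2F, the partner of RNF7 on CUL5, had a slope of 0.15 in either arm, and both calls were lost under at least 1 scaling.

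The E2 pair of the anaphase-promoting complex parted over the chase. UBE2C places the first ubiquitin and UBE2S extends the chain through lysine 11. UBE2C was at 170.45 and 177.7 TPM at 0 h and 440.22 and 486.51 TPM after 6 h in induced cells, and at 193.11 and 219.66 TPM at 0 h and 463.73 and 484.47 TPM after 6 h in uninduced cells. The slopes of UBE2C were 0.24 ± 0.0198 and 0.19 ± 0.0198 (limma adjusted p = 2.61e-10 and 1.25e-08). UBE2S was at 293.35 and 274.45 TPM at 0 h and 291.95 and 310.83 TPM after 6 h in induced cells, and at 329.77 and 351.89 TPM at 0 h and 426.74 and 438.82 TPM after 6 h in uninduced cells. The UBE2S slope was 0.038 ± 0.017 in induced cells (limma adjusted p = 0.0486) and 0.063 ± 0.017 in uninduced cells (adjusted p = 0.00234). The induced slope of UBE2S turned negative under quantile normalization (-0.0255), without the 3 noncoding RNAs (-0.0107) and with protein-coding transcripts alone (-0.021), and removal of any of 19 single libraries ended its call, at adjusted p of 0.0501 to 0.113 within a range of 0.0103 to 0.96 over all its alternatives. Its uninduced slope was 0.00913 to 0.0241 under the other scalings and passed in none of them.

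In the UBCH5 family, E2 enzymes that work with a wide range of RING ligases, 3 of 4 rose in both arms. UBE2D3 was at 108.58 and 92.38 TPM at 0 h and 242.09 and 235.13 TPM after 6 h in induced cells, and at 91.93 and 98.43 TPM at 0 h and 253.39 and 226.8 TPM after 6 h in uninduced cells. UBE2D2 had slopes of 0.22 and 0.24, UBE2D3 of 0.21 and 0.23, and UBE2D1, the scarcest of the 3, of 0.17 and 0.15 in induced and uninduced cells. UBE2D4 was the only member to fall, in the induced arm, where other scalings gave up to 3 falling members. It was at 7.45 and 5.28 TPM at 0 h and 4.81 and 4.19 TPM after 6 h in induced cells, and at 5.58 and 5.05 TPM at 0 h and 5.54 and 4.7 TPM after 6 h in uninduced cells. Its slope was -0.085 ± 0.0228 in induced cells (limma adjusted p = 0.00194) and -0.042 ± 0.0228 in uninduced cells (adjusted p = 0.107). The difference between its slopes was not past the threshold (adjusted p = 0.638), and under median-of-ratios scaling UBE2D4 fell in uninduced cells too, at -0.0837. Without the replicate 1 libraries its induced slope was -0.0705, at an adjusted p of 0.05 that no longer passed, within a range of 5.18e-06 to 0.0577 over all its alternatives.

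The UBE2E enzymes, which carry an extension before the catalytic core, divided by member. UBE2E2 and UBE2E3 rose in both arms, with slopes of 0.20 and 0.19 in induced cells and 0.15 and 0.20 in uninduced cells. UBE2E1 had a slope of 0.073 in induced cells (limma adjusted p = 0.00719) and of 0.047 in uninduced cells (adjusted p = 0.0802). Without the first 6 h library of the induced arm the slope of UBE2E1 there was 0.0551, at an adjusted p of 0.0766. UBE2E1 had 41.95 and 41.39 TPM at 0 h and 62.13 and 56.06 TPM after 6 h in induced cells, against 39.61 and 41.91 TPM at 0 h and 48.21 and 43.49 TPM after 6 h in uninduced cells.

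Among E2 enzymes of endoplasmic reticulum quality control and of lysine 48 chains, 5 of 6 rose in induced cells and 6 of 6 in uninduced cells. UBE2J2, a membrane-anchored E2, was at 35.91 and 27.31 TPM at 0 h and 80.62 and 78.71 TPM after 6 h in induced cells, and at 41.47 and 31.95 TPM at 0 h and 93.77 and 91.67 TPM after 6 h in uninduced cells. Its relative UBE2J1 rose less, with slopes of 0.057 and 0.068, and both calls were lost under at least 1 scaling. UBE2J1 was at 17.89 and 16.71 TPM at 0 h and 23.43 and 22.45 TPM after 6 h in induced cells, and at 16.42 and 19.18 TPM at 0 h and 24.41 and 22.5 TPM after 6 h in uninduced cells. UBE2G1, which works with cullin ligases, had slopes of 0.16 and 0.21, and UBE2G2, an E2 of endoplasmic reticulum quality control, of 0.14 and 0.17. UBE2K, which builds lysine 48 chains, had slopes of 0.12 in induced cells and 0.20 in uninduced cells. UBE2R2, the close relative of CDC34 that serves SCF ligases, was the exception in the induced arm, with a slope of 0.0016 there (limma adjusted p = 0.969) and 0.13 in uninduced cells (adjusted p = 0.000946). Over 0 to 4 h alone UBE2R2 rose in induced cells too, at 0.125 (adjusted p = 0.00584), and under quantile normalization its induced slope over 6 h was -0.068 (adjusted p = 0.0185).

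**Figure D2:**
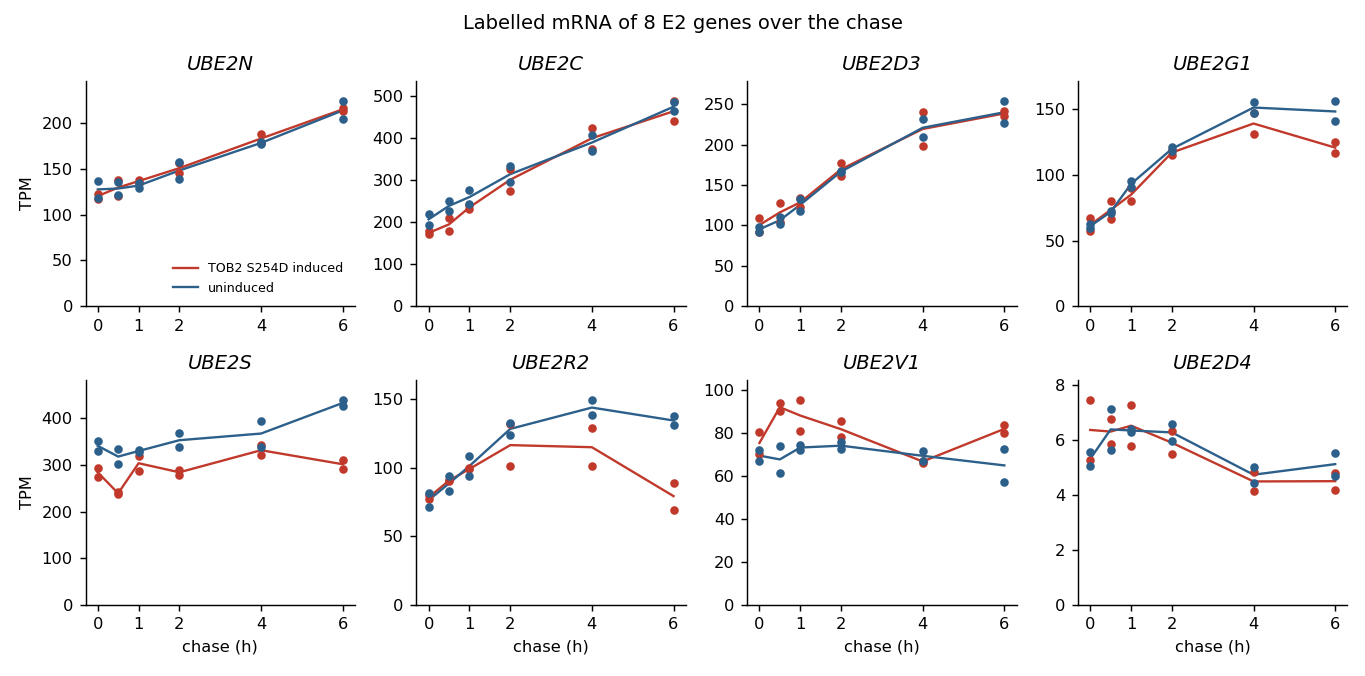
TPM of 8 E2 mRNAs over 0 to 6 h of chase in the induced (red) and the uninduced (blue) arm, with a point for each library and a line through the means of 2. UBE2N, UBE2C and UBE2D3 climb in both arms, UBE2R2 drops between 4 and 6 h in the induced arm and ends there at 69.5 and 89.14 TPM, and UBE2V1 and UBE2D4 do not climb.

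The lysine 63 group behaved unevenly. UBE2N, or UBC13, is the catalytic subunit, and it rose at 0.14 in induced cells and 0.13 in uninduced cells. UBE2V1 and UBE2V2, the partners that lack the catalytic cysteine and set the linkage, rose less or not at all. UBE2V1 had slopes of -0.024 and -0.016, neither past the threshold, and UBE2V2 had slopes of 0.0015 (limma adjusted p = 0.95) in induced cells and 0.046 (adjusted p = 0.0458) in uninduced cells. Both slopes of UBE2V2 changed sign with the scaling, to -0.0586 and -0.028 under quantile normalization, and the uninduced call was lost on removal of any of 7 single libraries. With TMEM189-UBE2V1 added to it, a setting chosen after seeing the data, UBE2V1 had slopes of 0.00559 in induced cells and 0.0341 in uninduced cells, at adjusted p of 0.763 and 0.0634.

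The RAD6 enzymes UBE2A and UBE2B, which mark histone H2B and PCNA, are near copies at the protein level. UBE2A rose in both arms, at 0.13 in induced cells and 0.097 in uninduced cells, the second call being lost under at least 1 scaling. UBE2B had a slope of 0.0017 in induced cells (limma adjusted p = 0.962) and 0.076 in uninduced cells (adjusted p = 0.0235), the second being lost without any of 3 uninduced libraries, at adjusted p of 0.0562 to 0.0721. The induced course of UBE2B was not flat, with means of 15.21 TPM at 0 h, 20.8 at 2 h, 20.68 at 4 h and 15.89 at 6 h. UBE2T, the E2 of the Fanconi anaemia ligase FANCL, rose at 0.12 and 0.14, and UBE2L3, which passes ubiquitin to HECT and RBR ligases such as parkin, at 0.13 and 0.15. Of the remaining members, UBE2Q1 was among the steepest at 0.23 and 0.25, and UBE2Z, which is charged by the E1 UBA6, had 0.19 in both arms. UBE2O, which combines E2 and E3 activity, had 0.12 and 0.11, UBE2W, which can modify the amino terminus of proteins, 0.081 and 0.12, and UBE2H, the E2 of the CTLH ligase, 0.049 and 0.10. The induced call of UBE2W was lost without either 0 h library of that arm, at slopes of 0.0629 and 0.0732. Under quantile normalization the induced slope of UBE2H was -0.00715, and with protein-coding transcripts alone -0.00912. UBE2Q2 had slopes of 0.026 and 0.039, neither past the threshold.

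The second comparison took the ratio of related E2 mRNAs within a library, a measure that the scaling to a fixed total touches only through the pseudocount, and so mainly for low members. Of 15 pairs, 14 could be tested. The ratio changed over the chase in 9 pairs in induced cells, 3 rising and 6 falling, and in 8 pairs in uninduced cells, 2 rising and 6 falling (two-sided permutation test of the slope, 100000 resamples, Benjamini-Hochberg over the 14 pairs). Ratios of other gene pairs were not computed, and 70.7% and 65.1% of all genes had a slope of their own in induced and uninduced cells. Whether related E2 mRNAs part more often than other genes was therefore not tested. No pair differed in slope between the arms at an adjusted p under 0.05, and 2 did at an unadjusted p under 0.05 (permutation over 46656 swaps of arm within a time, the smallest p it can give being 4.29e-05). The UBE2C to UBE2S ratio of TPM averaged 0.614 at 0 h and 1.54 at 6 h in induced cells and 0.605 and 1.1 in uninduced cells. Its slope was 0.20 in induced cells, with the smallest p the permutations allow of 1e-05 and an adjusted p of 0.00014, and 0.13 in uninduced cells with an adjusted permutation p of 0.00014. The difference of 0.069 between the arms had a permutation p of 0.156 and an adjusted p of 0.544.

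Further pairs changed in both arms. UBE2J1 to UBE2J2 averaged 0.555 at 0 h and 0.288 at 6 h in induced cells, and 0.498 and 0.253 in uninduced cells. UBE2Q1 to UBE2Q2 averaged 8.97 and 20.9 in induced cells, and 9.29 and 23.6 in uninduced cells. UBE2E1 to UBE2E3 averaged 2.76 and 1.64 in induced cells, and 2.92 and 1.51 in uninduced cells. These 3 pairs and UBE2C to UBE2S passed in both arms without any single library. UBE2E1 to UBE2E2 fell in both arms (-0.13 and -0.11), but in uninduced cells the call was lost without any of 6 single libraries. UBE2D1 fell against UBE2D2 and UBE2D3 in both arms, and these calls were lost in the induced arm without the second 6 h library, at slopes of -0.0538 and -0.0355, and in the uninduced arm without the second 6 h library, among others for UBE2D2. UBE2D2 to UBE2D3, UBE2E2 to UBE2E3, UBE2G1 to UBE2G2 and UBE2M to UBE2F passed in neither arm. A line does not register a ratio that rises and turns back, as UBE2G1 to UBE2G2 did. Its log2 ratio in uninduced cells was 0.876 and 1.204 at 0 h, 1.719 and 1.683 at 2 h, and 1.391 and 1.171 at 6 h. In induced cells it was 0.69 and 0.996, 1.234 and 1.529, and 0.915 and 0.773 at those times. This shape was not tested.

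UBE2A to UBE2B averaged 2.99 at 0 h and 4.67 at 6 h in induced cells and 2.84 and 3.11 in uninduced cells. Its slope was 0.13 in induced cells (adjusted permutation p = 0.0309, lost without any of 3 induced libraries). The course was not a line, since the ratio dipped before it rose in both arms. At 0, 2 and 6 h its log2 value was 1.562 and 1.479, 1.155 and 0.926, and 2.057 and 2.245 in induced cells. In uninduced cells it was 1.472 and 1.416, 0.995 and 1.097, and 1.455 and 1.714. This shape was not tested. The slope of this ratio in uninduced cells was 0.021 (adjusted permutation p = 0.589), and the difference between arms had a permutation p of 0.029 and an adjusted p of 0.313. UBE2V1 to UBE2V2 fell at -0.063 in uninduced cells (adjusted permutation p = 0.0256, lost without either of 2 libraries) and had a slope of -0.026 in induced cells (adjusted permutation p = 0.515). UBE2R2 to CDC34, the pair of SCF enzymes, fell at -0.11 in induced cells (adjusted permutation p = 0.0335, lost without any of 7 libraries), and its difference between arms of -0.094 had an adjusted permutation p of 0.313.

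**Figure D3:**
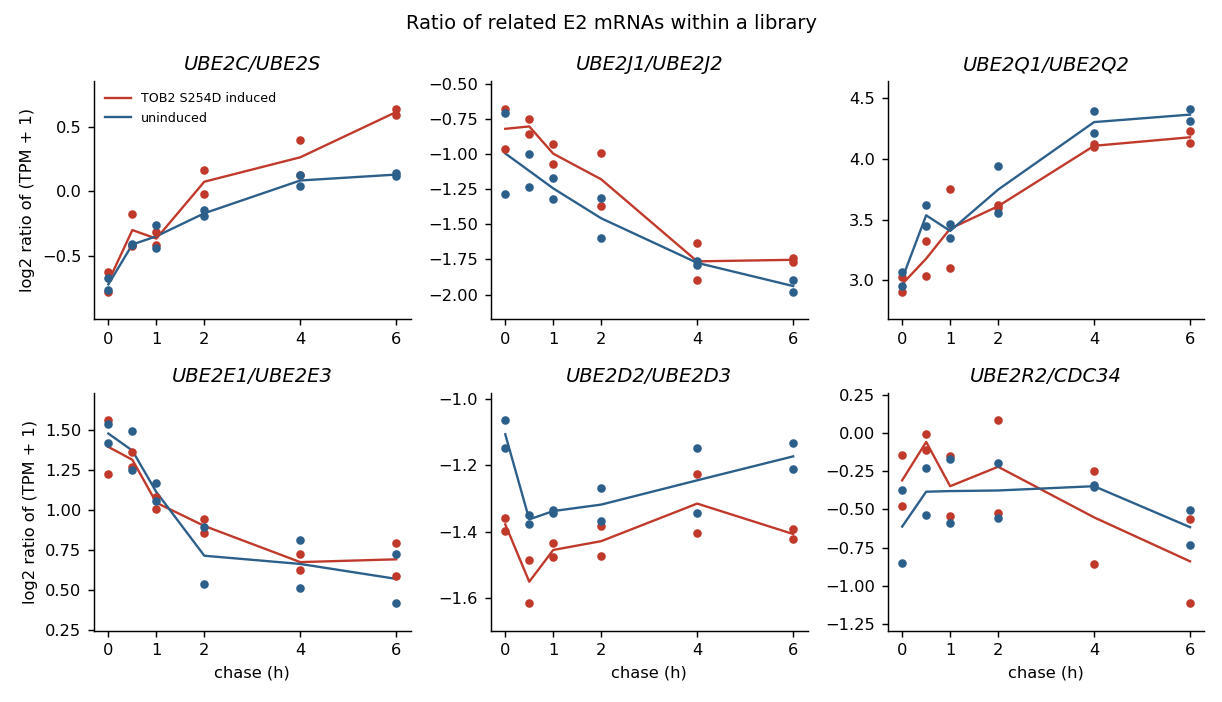
Log2 ratio of (TPM + 1) between related E2 mRNAs of the same library over 0 to 6 h of chase, with a point per library and a line through the means of 2, for the induced (red) and the uninduced (blue) arm. The UBE2C to UBE2S and UBE2Q1 to UBE2Q2 ratios climb and the UBE2J1 to UBE2J2 and UBE2E1 to UBE2E3 ratios fall in both arms, while UBE2D2 to UBE2D3 shows no slope past the threshold in either.

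In a few E2 genes, transcripts of the same gene were called in opposite directions. These were UBE2C and UBE2L3 in both arms and UBE2G2 in uninduced cells alone. The share of all genes with such a split was not computed. The table lists 103 RefSeq transcripts of the members, 74 of them averaged at least 1 TPM, and 17 members had 2 or more such transcripts. In the transcript fit 33 of the 74 rose and 4 fell in induced cells, against 27.5% and 19.1% of all transcripts, and 30 rose and 4 fell in uninduced cells, against 26.2% and 14.1%. The division of reads between transcripts is an estimate and carries its own uncertainty, which the deposited values do not give. UBE2C held the widest split. Its transcript NM_007019 rose at 0.33 ± 0.0315 in induced cells and 0.27 ± 0.0315 in uninduced cells (limma adjusted p = 1.43e-08 and 4.47e-07). NM_181801 fell at -0.38 ± 0.048 and -0.31 ± 0.048 (adjusted p = 6.81e-07 and 1.38e-05).

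The UBE2L3 transcript NM_001256355 rose at 0.17 and 0.19, while its noncoding transcript NR_046082 fell at -0.30 in induced cells and -0.16 in uninduced cells. NR_046082 averaged 14.13 ± 2.36 TPM at 0 h and 5.265 ± 2.14 TPM after 6 h in induced cells, and 16.01 ± 2.49 TPM at 0 h and 8.7 ± 2.35 TPM after 6 h in uninduced cells (SD, n = 2 each). For UBE2G2, NM_003343 rose at 0.29 and 0.38. The other transcript of UBE2G2, NM_182688, had a slope of -0.046 in induced cells (limma adjusted p = 0.49) and fell at -0.14 in uninduced cells (adjusted p = 0.0333). A noncoding transcript of UBE2V1, NR_104218, fell at -0.23 in both arms.

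**Figure D4:**
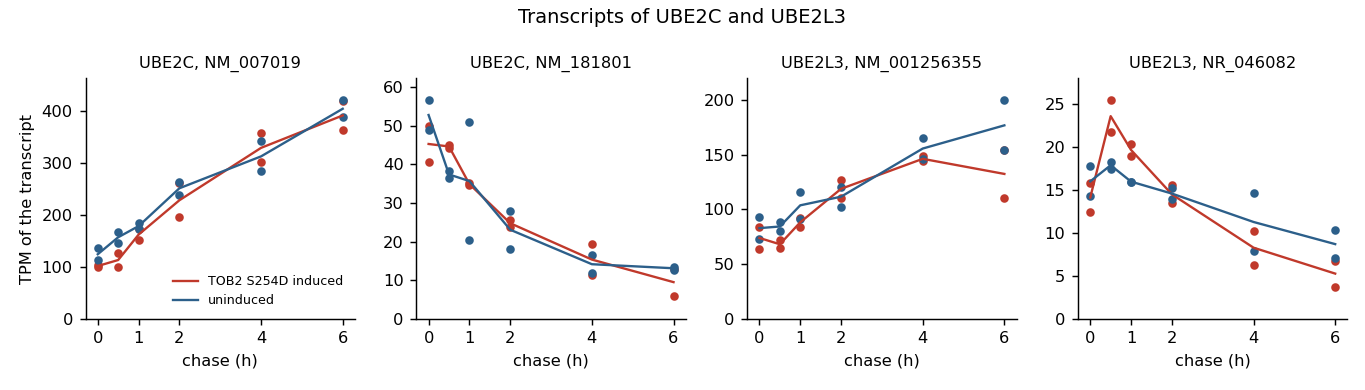
TPM over 0 to 6 h of chase of transcripts NM_007019 and NM_181801 of UBE2C and NM_001256355 and NR_046082 of UBE2L3, in the induced (red) and the uninduced (blue) arm, with a point per library and a line through the means of 2. In each gene the first transcript climbs and the second falls in both arms.

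The third comparison was between the arms. No E2 mRNA differed in slope between induced and uninduced cells at an adjusted p under 0.05, against 0.343% of all genes that did. By limma, 2 members passed an unadjusted threshold of 0.05, both lower in induced cells, UBE2R2 by -0.13 (adjusted p = 0.214) and UBE2K by -0.078 (adjusted p = 0.377), while 12.5% of all genes passed that threshold. The median slope difference was -0.0134 over the members and -0.00943 over all genes. When the trend was taken over the 12 group means, UBE2R2 was called at -0.131 with a limma adjusted p of 0.0075, as were 6.13% of all genes in that fit. The estimate there is still a linear trend, and only the spread is measured around group means in place of the line. In simulated data of the same size, 18% of slope differences of 0.1 log2 units per hour were recovered, and 75% of those of 0.2. Those data were straight lines with the spread around the 12 group means. In the real data the spread around the line also holds departures from a line, so recovery may be lower for any member. Smaller differences were therefore mostly not detectable there. Recovery from courses that bend, as that of UBE2R2 did in induced cells, was not tested, so these shares may not hold for such members.

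At 0 h, before any chase, no member differed between the arms at an adjusted p under 0.05, against 0.0298% of all genes, 0.0224% higher and 0.00745% lower. By limma, 1 member passed an unadjusted threshold of 0.05 at that time, UBE2S at -0.26 (adjusted p = 0.577), as did 6.57% of all genes. At 6 h 2 members were lower in induced cells and none was higher, 6.45% of the family against 9.14% of all genes, 8.04% lower and 1.1% higher. At an unadjusted p under 0.05 there were 9 members, 3 of them higher and 6 lower, against 21.7% of all genes.

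UBE2R2 had the largest difference at 6 h. It was at 69.5 and 89.14 TPM in induced cells against 131.04 and 138.05 TPM in uninduced cells, after 101.09 and 129.0 TPM against 138.57 and 149.41 TPM at 4 h. The arms did not overlap at 4 and 6 h and overlapped at the 4 earlier times. The fold at 6 h was 0.59 (log2 -0.77 ± 0.143, limma adjusted p = 0.00224), and at 0 h it was 1.03. Without the first 6 h library of the induced arm the difference was -0.588 and was not past the threshold (adjusted p = 0.0584, range over all its alternatives 0.000102 to 0.0584). CDC34, its relative, was at 151.65 and 132.42 TPM in induced cells against 218.22 and 196.06 TPM in uninduced cells at 6 h (log2 -0.54, limma adjusted p = 0.0357).

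UBE2S was lower in induced cells at 6 h by -0.52 ± 0.09 (limma adjusted p = 0.00125). Its level at that time was 291.95 and 310.83 TPM in induced cells against 426.74 and 438.82 TPM in uninduced cells. Both induced libraries lay below both uninduced libraries at 5 of 6 times, all but 4 h, and UBE2S was the only member of which this held at 5 or more times, against 4.0% of all genes.

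Over the mean of the 6 times, 3 members were higher in induced cells and 5 lower, against 14.3% and 11.4% of all genes. The 8 calls make 25.8% of the family, and the share over all genes was 25.7%. The split moved with the scaling. It was 2 higher and 8 lower by median of ratios, and 6 higher and 6 lower with protein-coding transcripts alone and likewise without the 3 noncoding RNAs. The median difference of all genes moved too, from 0.0507 to 0.0151, 0.0729 and 0.0715 in these 3 settings. Shares of all genes under them are not set beside the counts, so whether the changed split is particular to the family was not tested. UBE2S was the most reduced, at 236.61 to 342.15 TPM (median 291 TPM) in induced libraries against 302.44 to 438.82 TPM (median 338.7 TPM) in uninduced libraries, a difference of -0.29 ± 0.0367 (limma adjusted p = 3.41e-05). UBE2R2 (-0.20, adjusted p = 0.0196) and UBE2T (-0.15, adjusted p = 0.0124) were lower by less. UBE2T was at 233.52 and 225.4 TPM in induced cells against 287.82 and 266.72 TPM in uninduced cells at 6 h, and the induced libraries lay below at 3 of 6 times.

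UBE2J2 (-0.20, limma adjusted p = 0.0478) and UBE2L3 (-0.13, adjusted p = 0.0314) were lower in induced cells by calls close to the threshold. Removal of any of 17 single libraries ended the call of UBE2J2, at differences of -0.207 to -0.159 and adjusted p of 0.0575 to 0.0939. Removal of any of 10 ended that of UBE2L3, at differences of -0.128 to -0.107 and adjusted p of 0.0508 to 0.0678. The same holds for UBE2G2 on the other side, which was higher in induced cells by 0.20 (adjusted p = 0.0412) and lost its call without any of 18 libraries, at adjusted p of 0.054 to 0.0888. Over all alternatives the adjusted p ran to 0.0939 for UBE2J2, to 0.175 for UBE2L3 and to 0.454 for UBE2G2.

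UBE2V1 was the member with the clearest higher level in induced cells, at 66.17 to 95.18 TPM (median 80.72 TPM) in induced libraries against 57.1 to 75.5 TPM (median 71.95 TPM) in uninduced libraries. Both induced libraries lay above both uninduced libraries at 4 of 6 times (0.5, 1, 2 and 6 h), which held for no other member and for 11.4% of all genes. The mean difference was 0.21 ± 0.0496 (limma adjusted p = 0.00644), and 0.208 (adjusted p = 0.00336) with the readthrough gene added. At 6 h the difference was 0.34 (adjusted p = 0.0987), and 0.131 (adjusted p = 0.539) with the readthrough gene added. Taken from its most abundant transcript alone, the UBE2V1 difference was 0.152 and was not past the threshold (adjusted p = 0.179, range over all its alternatives 0.000765 to 0.179). UBE2E1 was higher by 0.20 ± 0.0583 (adjusted p = 0.0222), and by 0.156 (adjusted p = 0.0657, range over all its alternatives 0.00418 to 0.273) under median-of-ratios scaling.

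**Figure D5:**
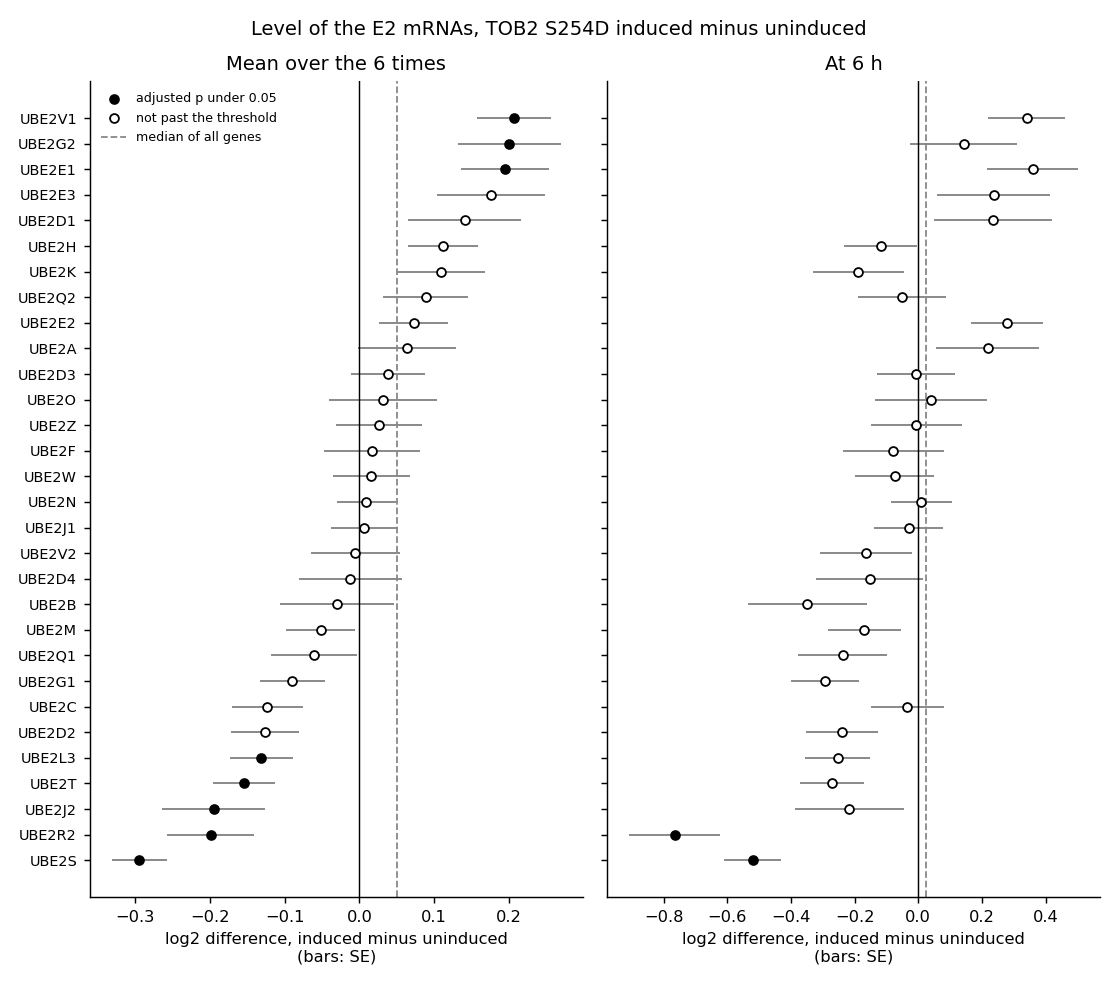
Log2 difference of the E2 mRNAs, induced minus uninduced, as the mean over the 6 times (left) and at 6 h (right), with the SE of the fit as bars. Filled points passed an adjusted p of 0.05, and dashed lines mark the medians of all genes. UBE2S and UBE2R2 are filled in both panels, on the lower side, and UBE2V1, UBE2G2 and UBE2E1 are filled on the higher side on the left.

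The genes around the E2 enzymes were read from 10 lists of the ubiquitin pathway, and no member of any list differed in slope between the arms at an adjusted p under 0.05, while 9 of their 110 measured genes did at an unadjusted p under 0.05 by limma, 3 higher and 6 lower, which is 8.18% against 12.5% of all genes. Over the lists together 67.3% of genes rose and 12.7% fell in induced cells, and 70.9% rose and 7.27% fell in uninduced cells. The shares over all genes, against which the counts of each list stand, were 41.6% rising and 29% falling in induced cells and 42.8% and 22.3% in uninduced cells. Of the E1 enzymes measured, 7 of 9 rose and 1 fell in both arms, with median slopes of 0.114 in induced and 0.102 in uninduced cells. UBA1, the main ubiquitin E1, had slopes of 0.27 in induced cells and 0.21 in uninduced cells, while MOCS3, which activates the modifier URM1, fell at -0.54 and -0.50. MOCS3 averaged 78.47 ± 8.0 TPM at 0 h and 9.805 ± 0.714 TPM after 6 h in induced cells, and 81.01 ± 2.42 TPM and 11.74 ± 0.141 TPM in uninduced cells (SD, n = 2 each). Of the ubiquitin and ubiquitin-like modifiers, 11 of 14 rose and 2 fell in induced cells and 9 rose and 1 fell in uninduced cells, with medians of 0.138 and 0.0898.

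The lists of E3 ligases and their subunits are given as counts against the same shares over all genes, 41.6% and 42.8% rising and 29% and 22.3% falling in induced and uninduced cells, and differences between lists were not tested. Cullins, their RING subunits and neddylation cofactors rose in 12 of 17 cases and fell in 2 in induced cells, and rose in 14 and fell in 2 in uninduced cells, with medians of 0.109 and 0.0922 and CUL4B, the scaffold of CRL4 ligases, at 0.32 in both arms. The subunits and activators of the anaphase-promoting complex rose in 12 of 16 cases and fell in 1 in induced cells, and rose in 11 and fell in none in uninduced cells, with medians of 0.0814 and 0.0867 and ANAPC2, its cullin-like subunit, at 0.29 and 0.27. Partner ligases of RAD6 rose in 8 of 10 cases and 9 of 10 cases with none falling, at medians of 0.158 and 0.13. Ligases and partners of endoplasmic reticulum quality control rose in 8 of 12 cases and fell in 3 in induced cells, and rose in 9 and fell in 2 in uninduced cells, at medians of 0.151 and 0.121, and TRIM13 fell at -0.43 and -0.37. The Fanconi anaemia list rose in 4 of 10 cases and fell in 1 in induced cells, and rose in 5 and fell in 1 in uninduced cells, at medians of 0.0345 and 0.0519. SUMO ligases rose in 5 of 8 cases and fell in 2 in induced cells, and rose in 6 and fell in 1 in uninduced cells, at medians of 0.121 and 0.119, with RANBP2 at 0.26 and 0.25. The UBC13 partner ligases rose in none of 6 cases and fell in 1 in induced cells, and rose in 3 and fell in none in uninduced cells, at medians of 0.0175 and 0.0455. The 8 E2 and E2-like genes with other names, CDC34 among them, rose in 7 cases and fell in 1 in induced cells, and rose in 5 and fell in none in uninduced cells, at medians of 0.128 and 0.139.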

How the data were processed

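The labelled cytoplasmic RNA of U2OS cells was sequenced in 24 libraries, 12 groups of arm and chase time with 2 libraries each, grouped by GEO's labels. The deposited values are TPM per RefSeq transcript. Per the submitters' processing notes, Trim Galore, Bowtie2, RSEM 1.3.0 and hg19 were used, with no role or order given, so strandedness and the treatment of shared reads are not given in the sources used here. Library sums lay between 999998 and 1000001 TPM, which hides the depth, and counting error is therefore not given. All value columns were used.

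TPM of 48009 transcripts was summed per gene symbol, 3 transcripts without a symbol were left out, and a symbol stored as a date was restored to MARCH6 by its RefSeq accession. The 13416 of 25341 genes that averaged 1 TPM or more were fitted on log2(TPM + 1), a pseudocount of 1 that understates changes of low genes, with limma 3.58.1 in R 4.3.3, with a variance trend and no replicate term. A line on hours within each arm (20 residual degrees of freedom) gave the slopes and their difference, and 12 group means (12 residual degrees of freedom) gave the differences at 0 h, at 6 h and over the 6 times, as induced minus uninduced values. All p-values are two-sided, with Benjamini-Hochberg adjustment over all genes fitted and a threshold of 0.05. Ratios of E2 pairs were tested by permutation. On simulated data of 13416 genes with 200 changed, the slope difference recovered 18% of changes of 0.1 and 75% of changes of 0.2 log2 units per hour, and the mean difference recovered 80% of changes of 0.5 and 97% of changes of 1. The simulated courses were straight lines with the spread around group means, so the recovery of slope differences may be lower in the real data. Python 3.11.15 and matplotlib 3.10.9 made the figures.

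The members and all lists were chosen with earlier results of these data known. Values of single libraries are given for members past a threshold, for the smallest p-values and for at least 1 member of each role, and pathway genes are those with the smallest p in the slope difference or in the uninduced slope, except where stated. Some genes that the counts include are not reported here by name.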

Additional observations from a re-analysis of the deposited data

How the results depend on the processing

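The alternatives were other pseudocounts (0.1 and 5), no filter on low values or a minimum of 5 TPM, other scalings, transcripts in place of genes, no variance trend, a chase of 0 to 4 h, a trend over group means, a replicate block and the removal of libraries. Of 234 single values recomputed, 93 changed sign in at least 1 alternative. Among these were 12 slopes of members or TOB2 within an arm, 7 of them (UBE2B and UBE2V1 included) with no call before or after. The other 5 changed sign with a call as reported or in the alternative. Under quantile normalization these were UBE2H (-0.00715), UBE2R2 (-0.068), UBE2S (-0.0255) and UBE2V2 (-0.0586) in induced cells and UBE2V2 (-0.028) in uninduced cells. With protein-coding transcripts alone they were UBE2H (-0.00912), UBE2S (-0.021) and UBE2V2 (-0.0568), and without RMRP, MIR6723 and RPPH1 they were UBE2S (-0.0107) and UBE2V2 (-0.0466), all in induced cells. By median of ratios it was UBE2V2 (-0.0021) in uninduced cells. The cause was not tested.

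Members falling in induced cells numbered 3 under quantile normalization, without the 3 noncoding RNAs and with protein-coding transcripts, and 2 by median of ratios and over 0 to 4 h. In uninduced cells they numbered 1 under quantile normalization, with protein-coding transcripts and with the replicate block, and 2 by median of ratios and without the noncoding RNAs. At 6 h 1 member, UBE2V1, was higher under quantile normalization, by median of ratios and with the replicate block, and 4 were lower without the noncoding RNAs and with protein-coding transcripts. Over the 6 times 6 were higher in those last 2 settings, 0 were higher and 3 lower with transcripts in place of genes, and 8 were lower by median of ratios. With the readthrough gene added, the UBE2V1 difference at 6 h was 0.131, against 0.34 as reported. The trend over group means called 1 lower slope difference, UBE2R2. With a pseudocount of 0.1, 3 pair ratios fell in uninduced cells. Shares of all genes under each setting are not set beside these counts, so whether a changed count is particular to the family was not tested.

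Leaving out a library or a replicate series left 19 to 25 members rising and 0 to 1 falling in induced cells, and 23 to 27 rising and 0 to 1 falling in uninduced cells. It left 0 in either direction for the slope difference and the difference at 0 h, 0 to 1 higher and 1 to 2 lower at 6 h, and 2 to 4 higher and 3 to 7 lower over the 6 times. The lower count of 3 came without the first 6 h library of either arm, the second 0.5 h library of either arm or the second uninduced 4 h library. At 6 h 1 was lower without the first induced 6 h library and 1 higher without the first uninduced 6 h library, and 1 member fell over the uninduced chase without the second uninduced 0 h library. For pairs, 0 to 3 rose and 0 to 6 fell in induced cells and 1 to 2 rose and 1 to 7 fell in uninduced cells. Without the second 6 h library of the same arm, 3 pairs fell in induced cells and 2 in uninduced cells. Differences of level without a whole replicate series were not run, since no residual degrees of freedom remain.

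The labels do not say what a replicate number marks. Deviations of libraries with the same number had correlations of 0.0203 to 0.156, positive at 6 of 6 times but not above 0.1 at each, so the numbers were not taken as pairs. The deviations of the 2 libraries of a group mirror each other, so each correlation is a single value for both numbers. Their positive sign is a hint from the data, not from the design. This check compares the arms within a time, so it does not register a shift between the series that runs over all times. UBE2A lay higher in replicate 1 in every group, at 52.5 against 38.9 TPM at 0 h in induced cells. In uninduced cells it was at 45.02 against 40.24 TPM at 0 h. UBE2S kept no such order. The main fits and the permutations within an arm hold no term for such a shift. The replicate block moved the counts over all genes to 99 for the slope difference (46 as reported), 11 at 0 h (4), 1870 at 6 h (1226) and 4721 over the 6 times (3454), and it left no member called in the slope difference. Among members it added calls on the mean over the 6 times for UBE2C (-0.123, limma adjusted p = 0.036), UBE2D2 (-0.127, 0.0103) and UBE2H (0.112, 0.0145), at 6 h for UBE2G1 (-0.293, 0.0446) and UBE2V1 (0.341, 0.0399), and for the uninduced slope of UBE2D4 (-0.0421, 0.0488). Over all alternatives the count of all genes with a slope difference ran between 0 and 823. Low members such as UBE2D4 and UBE2Q2 are limited by values of a few TPM at unknown depth.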

Other observations

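The share of pathway genes lower in induced cells at 6 h was near that of all genes. Of the 110 measured genes of the 10 lists, 10 (9.09%) were lower and none was higher (limma adjusted p under 0.05), against 8.04% and 1.1% of all genes. At an unadjusted p under 0.05 there were 16 lower and 10 higher, 23.6% against 21.7% of all genes. The genes and lists below were named after their values were seen, and their values are a description. Among the ubiquitin genes UBB (-0.51, adjusted p = 0.00192) was lower. UBB averaged 1068 ± 48.9 TPM in induced cells against 1529 ± 199 TPM in uninduced cells at 6 h (SD, n = 2 each).

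Of the UBC13 partner ligases 3 of 6 were lower at 6 h, namely RNF4 (-0.56, adjusted p = 0.00567), RNF8 (-0.49, adjusted p = 0.0168) and RNF168 (-0.41, adjusted p = 0.0322), ligases that act at DNA breaks or on SUMO chains. RNF4 averaged 158.6 ± 1.01 TPM in induced cells against 234.7 ± 11.0 TPM in uninduced cells. Of the ligases of endoplasmic reticulum quality control 3 of 12 were lower, RNF139 (-0.74, adjusted p = 0.00214), TRIM13 (-0.43, adjusted p = 0.0241) and RNF185 (-0.35, adjusted p = 0.0481). RNF139 averaged 52.42 ± 1.94 TPM in induced cells against 88.66 ± 10.3 TPM in uninduced cells. ANAPC13, a small subunit of the anaphase-promoting complex, averaged 42.31 ± 0.212 TPM against 74.04 ± 12.4 TPM (-0.78, adjusted p = 0.00365), while 15 of the 16 genes of its list did not pass.

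On the mean over the 6 times, 21 of the 110 genes (19.1%) were higher and 10 (9.09%) lower in induced cells, against 14.3% and 11.4% of all genes. Of the UBC13 partner ligases none was higher and 2 of 6 were lower, and 5 of the 12 quality control genes were higher in induced cells (among them SEL1L at 0.29, OS9 at 0.23, MARCH6 at 0.21 and AUP1 at 0.19) and 1 was lower, TRIM13 at -0.16. Of the cullin list 4 of 17 were higher (DCUN1D2, CUL4B, CUL2 and RNF7, at 0.13 to 0.25) and none lower.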
